A study of Mus musculus with 3 samples.

Results

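The Kruppel-like factors (KLFs) are transcription factors with zinc fingers at the carboxyl end that bind GC-rich and CACCC-type DNA. The genes described here were 10 KLF genes named by symbol: Klf2, Klf3, Klf4, Klf6, Klf7, Klf9, Klf10, Klf11, Klf13 and Klf15. Of these, 9 were among the 18287 genes of the deposited tables. Klf15 was not listed there and is not analysed here. The symbols were named with earlier results of these data known. Other listed genes of the family, Klf5 among them, are described separately below.

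The libraries came from endothelial cells of the mouse aorta, bought as a culture together with their medium, and there were 3 groups of 1 library each. Control cells had no treatment. A second group had glucose oxidase (5 mU/mL for 30 min), which oxidizes glucose and releases hydrogen peroxide. The third had the same glucose oxidase exposure together with ethyl-2-hydroxybenzylamine (Et2HOBA) at 0.2 mM for 24 h; Et2HOBA was used in this study to scavenge adducts formed under oxidative stress. The labels give no strain, passage, harvest time or order of the exposures, and a library given Et2HOBA alone was not analysed here, so an effect of Et2HOBA by itself and its effect on the oxidant response cannot be told apart.

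In endothelium, KLF2 and KLF4 are induced by laminar blood flow through the kinases MEK5 and ERK5 and the transcription factors of the MEF2 family. They are known for raising vasodilator and anticoagulant genes and for lowering inflammatory and procoagulant genes. KLF6 takes part in the response of vessels to injury. KLF9 and KLF13 bind GC-boxes near promoters, and KLF9 is a target of the glucocorticoid receptor. KLF10 and KLF11 were described as early genes of the transforming growth factor beta (TGF-beta) response, and KLF3 is a repressor that works with the CtBP corepressors.

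The stretches just before the starts of 4 members are shown because these members had the largest ratios between libraries. RefSeq promoter windows of GRCm38.p6, from 250 bases before to 50 bases after a gene start, were matched by symbol for 9 of the 10 members; none was used for Klf10. Each stretch is printed 5′ to 3′ on the strand of the gene and ends before both the RefSeq and the GENCODE start. Capitals mark ATTTAG, the opposite strand of CTAAAT, in Klf4, and the longer MEF2 site that holds them in Klf2. They mark CACGTG (an E-box) in Klf6 and TGANTCA (a loose AP-1 pattern) in Klf9. The marked motifs were chosen gene by gene. Other matches, such as CACGTG in Klf4 and TGACNNNGC in Klf6, are left in small letters.
Klf2, chr8:72318812-72319032, plus strand: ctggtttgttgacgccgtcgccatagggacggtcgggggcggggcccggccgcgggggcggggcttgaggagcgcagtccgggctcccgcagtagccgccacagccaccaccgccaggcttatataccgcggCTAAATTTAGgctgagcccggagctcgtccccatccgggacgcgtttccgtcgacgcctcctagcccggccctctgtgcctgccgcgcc
Klf4, chr4:55532476-55532725, minus strand: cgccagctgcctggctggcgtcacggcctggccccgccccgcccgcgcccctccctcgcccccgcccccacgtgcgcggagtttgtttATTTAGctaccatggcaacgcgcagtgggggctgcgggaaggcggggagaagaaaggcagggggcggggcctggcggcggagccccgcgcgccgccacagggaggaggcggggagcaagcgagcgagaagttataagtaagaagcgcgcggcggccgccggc
Klf6, chr13:5861239-5861481, plus strand: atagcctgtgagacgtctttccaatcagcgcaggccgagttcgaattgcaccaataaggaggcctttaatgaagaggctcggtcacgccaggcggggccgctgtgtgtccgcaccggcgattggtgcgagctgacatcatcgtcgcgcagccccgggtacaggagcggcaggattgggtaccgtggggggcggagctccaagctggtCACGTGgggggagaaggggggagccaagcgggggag
Klf9, chr19:23140976-23141225, plus strand: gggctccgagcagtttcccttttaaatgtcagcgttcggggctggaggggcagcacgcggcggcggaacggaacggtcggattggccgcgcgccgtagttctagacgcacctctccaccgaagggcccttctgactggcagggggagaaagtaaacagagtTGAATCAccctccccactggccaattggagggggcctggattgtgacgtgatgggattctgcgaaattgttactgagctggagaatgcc

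The letters of a MEF2 site, searched as CTA, any 4 letters and TAG (a pattern that reads the same on both strands), were found in the window of Klf2, 118 bases before the RefSeq start, and in no other of the 9 member windows. Of all 32851 promoter windows 3.69% held them. The first 6 letters of that site, CTAAAT, were present in Klf2 and, on the opposite strand 162 bases before the start, in Klf4, and 8.98% of all windows held them. CTAAAT lies within the longer motif in Klf2, so these are not separate matches, and the 6-letter search was chosen after the promoters had been read. TGANTCA, a loose AP-1 pattern with any letter at its centre, was found in Klf9 alone, 89 bases before its start. The match was TGAATCA, with A at the centre, and the pattern is looser than the usual AP-1 site. Of all windows 7.81% held this loose pattern. CACGTG was found in Klf4, Klf6, Klf11 and Klf15 (7.15% of all windows), at 43 bases before the start in Klf6. The GC box GGGCGG was in 8 of the 9 member windows, all but that of Klf9, and in 35.7% of all windows. The members' windows were richer in G and C, at 58.3% to 77.7%, than the median window, at 52.7%. The CACCC box was in 6 of the 9 (57.5% of all windows) and TGACNNNGC, the letters of an antioxidant response element, in Klf3, Klf6 and Klf15 (12.4%). TGACGTCA, a cyclic AMP response element, and TGATGNAA, a C/EBP-ATF element, were in none of the 9, against 1.79% and 3.97% of all windows. These matches describe letters in the windows, and binding was not measured.

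Counts could be set side by side for 18275 genes, with 35919472 reads in the control library, 34938103 in the glucose oxidase library and 40126092 in the library given both agents. The last is called the Et2HOBA library below. Each gene's count was divided by its library's size factor (1.03, 0.965 and 1.04) to give a normalized count. Since each group was a single library, spread between replicates is unknown and conditions were not tested against each other. Intervals at 95% are exact (Clopper-Pearson for folds, Poisson for levels) and hold for the reads of these libraries, that is, for counting error alone. All 9 endothelial markers examined were listed, and together they took 327557, 227515 and 259674 reads in control, glucose oxidase and Et2HOBA. With Et2HOBA against control 1 of them was higher past 1 log2 unit (Nos3, at 1.29) and 4 were lower (Tek at -2.01, Vwf at -1.90, Kdr at -1.36 and Erg at -1.14), with a median of -0.88. After glucose oxidase 0 were higher and 3 lower, with a median of -0.51. The glucose oxidase library had 464 genes without a read, against 131 in control and 218 with Et2HOBA, and processed pseudogenes took 0.390% of its reads, against 0.719% and 0.753%. Mitochondrial genes took 1.33%, 1.20% and 1.05%. Of 5 leukocyte markers, Ptprc, Adgre1 and Cd3e were not listed, while Cd68 had 8215, 17067 and 27799 reads and Lyz2 186, 76 and 86. Lyve1, a lymphatic marker, had 11828, 22417 and 33226 reads, Flt4 had 7071, 6084 and 7796, and Prox1 was not listed. Pdgfra, a fibroblast marker, had 107, 1325 and 2821 reads, whereas Col1a1 stayed between 23 and 30 and Col1a2, Dcn and Lum were not listed. The 3 listed smooth muscle markers of 5 summed to 36, 62 and 90 reads. Markers of the same cell type did not move together. Cd68, Lyve1, Pdgfra and Nos3 were higher, as most KLFs were, while Lyz2, Tek, Vwf, Kdr and Erg were lower. Flt4 and Col1a1 changed little. With Et2HOBA 3 of the 9 endothelial markers lay above control and 6 below. The part of these markers and library measures in the KLF differences was not tested. In a bulk library, a change in the number of cells of a type and a change in RNA per cell cannot be told apart.

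Together the 9 KLFs had 38061, 41018 and 61928 reads in these libraries, with summed normalized counts of 36882, 42490 and 59627. Klf2 was the most abundant KLF per length in each library, at 5254, 6085 and 9752 normalized counts per kilobase of exon. Its level per length lay above that of 98.0% of protein-coding genes in control. Klf4 came second, at 1355, 1362 and 2485 normalized counts per kilobase. The level of Klf2 was 3.88, 4.47 and 3.92 times that of Klf4 in the same order of libraries. Klf9 and Klf6 followed at 935 and 823 normalized counts per kilobase in control, and they changed places in the Et2HOBA library, where Klf6 had 1699 and Klf9 1610. By this measure Klf13, Klf3 and Klf10 held the next places in all 3 libraries, at 698, 535 and 347 in control. The place of Klf3 depends on the length used. Its exons together cover 11243 bases, against 5221 in its longest transcript, and transcript lengths would place Klf3 higher. Klf11 and Klf7 were the least abundant, at 185 and 172 in control, and these were the only neighbours in any library whose counting intervals overlapped (173 to 198 and 163 to 181).

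**Figure D1:**
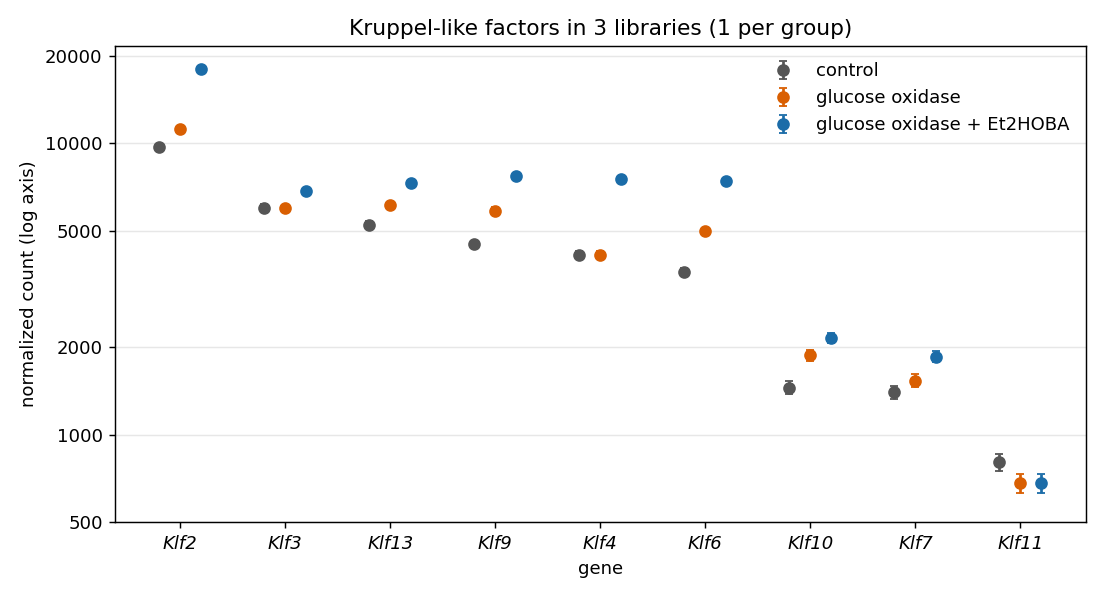
Normalized count (log axis) of the 9 listed Kruppel-like factors in the 3 libraries (control, glucose oxidase alone, both agents), 1 per group; bars are 95% Poisson intervals on the reads, often smaller than the points. Klf4 and Klf3 have nearly the same count in control and glucose oxidase, Klf2, Klf4, Klf6 and Klf9 stand highest with Et2HOBA, and Klf11 is lower in both treated libraries than in control.

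The flow-responsive pair came first. Klf2 (ENSMUSG00000055148.7, GRCm38 chromosome 8, 72319033 to 72321656) was counted 10015 times in the control library, 10850 times in the glucose oxidase library and 18707 times in the Et2HOBA library. The control and glucose oxidase libraries were close, and the Et2HOBA library was well above both. The normalized count was 1.16-fold that of control after glucose oxidase (1.13 to 1.19) and 1.86-fold with Et2HOBA (1.81 to 1.90). Between the treated libraries it was 1.60-fold higher with Et2HOBA (1.57 to 1.64). In normalized counts, the difference of glucose oxidase from control was 18.5% of the difference of the Et2HOBA library from control.

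Klf4 (ENSMUSG00000003032.8, chromosome 4, 55527143 to 55532466) had 4264, 4008 and 7870 reads in the same order. Here the control and glucose oxidase libraries could not be told apart: the fold was 1.005, with an interval of 0.962 to 1.05. The Et2HOBA library was 1.83-fold above control (1.77 to 1.90) and 1.83-fold above glucose oxidase (1.76 to 1.90). Of the 9 members Klf4 had the largest ratio between the treated libraries, a log2 ratio of 0.87. Only 1.32% of protein-coding genes had a higher one.

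Klf6 (ENSMUSG00000000078.7, chromosome 13, 5861482 to 5870394) had 3730, 4822 and 7747 reads. Its count was lowest in control and highest with Et2HOBA. The fold over control was 1.38 after glucose oxidase (1.32 to 1.44) and 2.06 with Et2HOBA (1.98 to 2.15), and the fold between the treated libraries was 1.49 (1.44 to 1.55). It was the only member past 1 log2 unit in any comparison, at 1.04 with Et2HOBA against control, and its counting interval reached below a 2-fold difference. In the authors' deposited table the value was 1.03.

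Klf9 and Klf13, both GC-box binding factors, were likewise lowest in control and highest with Et2HOBA. Klf9 (ENSMUSG00000033863.2, chromosome 19, 23141226 to 23168134) had 4645, 5670 and 8052 reads in the 3 libraries. It was 1.30-fold above control after glucose oxidase (1.26 to 1.36) and 1.72-fold with Et2HOBA (1.66 to 1.79). Klf13 (ENSMUSG00000052040.10, chromosome 7, 63886351 to 63938915) had 5424, 5929 and 7570 reads, with folds over control of 1.17 (1.13 to 1.21) and 1.39 (1.34 to 1.44). In normalized counts, the difference of glucose oxidase from control was 42.2% (Klf9) and 43.6% (Klf13) of that of the Et2HOBA library.

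The TGF-beta early genes Klf10 and Klf11 went opposite ways. Klf10 (ENSMUSG00000037465.10, chromosome 15, 38291463 to 38300706) had 1496, 1805 and 2230 reads. It was 1.29-fold above control after glucose oxidase (1.20 to 1.38) and 1.48-fold with Et2HOBA (1.39 to 1.58). The first difference, in normalized counts, was 60.2% of the second. Klf11 (ENSMUSG00000020653.12, chromosome 12, 24651274 to 24662789) had 829, 657 and 708 reads and was the one member below control in both treated libraries beyond counting error. Its normalized count was 0.847 of control after glucose oxidase (0.764 to 0.940) and 0.849 with Et2HOBA (0.767 to 0.939). The treated libraries differed by a fold of 1.002, with an interval of 0.899 to 1.12. The level of Klf10 per length went from 1.87 times that of Klf11 in control to 2.85 and 3.27 times.

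Of the members above control with Et2HOBA, Klf3 and Klf7 differed least. Klf3 (ENSMUSG00000029178.14, chromosome 5, 64803388 to 64832901), the CtBP-dependent repressor, had 6213, 5801 and 7122 reads. After glucose oxidase its fold over control was 0.998 (0.963 to 1.03), and with Et2HOBA it was 1.14 (1.10 to 1.18). The latter depends on the scale: as a log2 ratio it was 0.19, and 0.04 with total-count scaling. Klf7 (ENSMUSG00000025959.13, chromosome 1, 64029447 to 64122282), known as a factor of neurons and of fat cell differentiation, had 1445, 1476 and 1922 reads. Its folds over control were 1.09 (1.01 to 1.17) and 1.32 (1.23 to 1.42), and its log2 ratio with Et2HOBA was 0.40, or 0.25 with total-count scaling.

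Read assignment touches Klf7 and Klf3. Of the 50-base stretches in its longest transcript, Klf7 shared 40.8% with the overlapping antisense gene Gm26649, which was not among the genes compared, and Klf3 shared 6.92% with other genes, among them the antisense Gm20033 (74, 33 and 37 reads). The libraries were stranded, but the strand setting of the counting is not given in the sources used here. For the other 7 members the shared part was at most 0.27%.

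Set against all genes, no member passed either limit after glucose oxidase alone, and most members were above control in both treated libraries. After glucose oxidase, 0 of 9 members lay past 1 log2 unit, against 12.7% of all genes in either direction and 9.29% of protein-coding genes. For 9 genes, that count is near the background. At a limit of 0.5 the count was again 0 of 9, against 33.8% of all genes and 27% of protein-coding genes. The members' log2 ratios ran from -0.24 to 0.47 with a median of 0.21, while the median of protein-coding genes was 0.04. Of the members' ratios 7 lay above 0 and 2 below. The lowest of the 7 was Klf4, at 0.007, and 53.3% of protein-coding genes had a higher ratio than Klf4. The ratios of Klf4 and of Klf3, at -0.003, changed sign under other scalings of the libraries. Here and below, log2 ratios were taken on normalized counts plus 10.

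With Et2HOBA against control 1 of 9 members, Klf6, was past 1 log2 unit, against 14.7% of all genes in either direction and 7.33% of protein-coding genes on the higher side. That share is near the background. At a limit of 0.5 Klf2, Klf4, Klf6, Klf9 and Klf10 were higher, 5 of 9, where 19.1% of protein-coding genes and 19.2% of all genes were higher, and no member was lower. The median ratio of the members was 0.56, with 8 above 0 and 1 below. That of protein-coding genes was 0.00, so about as many of them lay above 0 as below.

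Between the treated libraries 0 of 9 members passed 1 log2 unit, against 8.55% of all genes and 3.32% of protein-coding genes. At 0.5 log2 units 3 of 9 were higher with Et2HOBA, namely Klf4, Klf2 and Klf6, where 5.69% of protein-coding genes and 13.6% of all genes were. All 9 ratios lay above 0, from 0.00 for Klf11 to 0.87 for Klf4, with a median of 0.27, whereas 46.6% of protein-coding genes lay above 0. The ratio of Klf11 changed sign under other scalings of the libraries. The 3 comparisons share libraries with each other, so their values are given side by side and no agreement between them is read as a result.

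**Figure D2:**
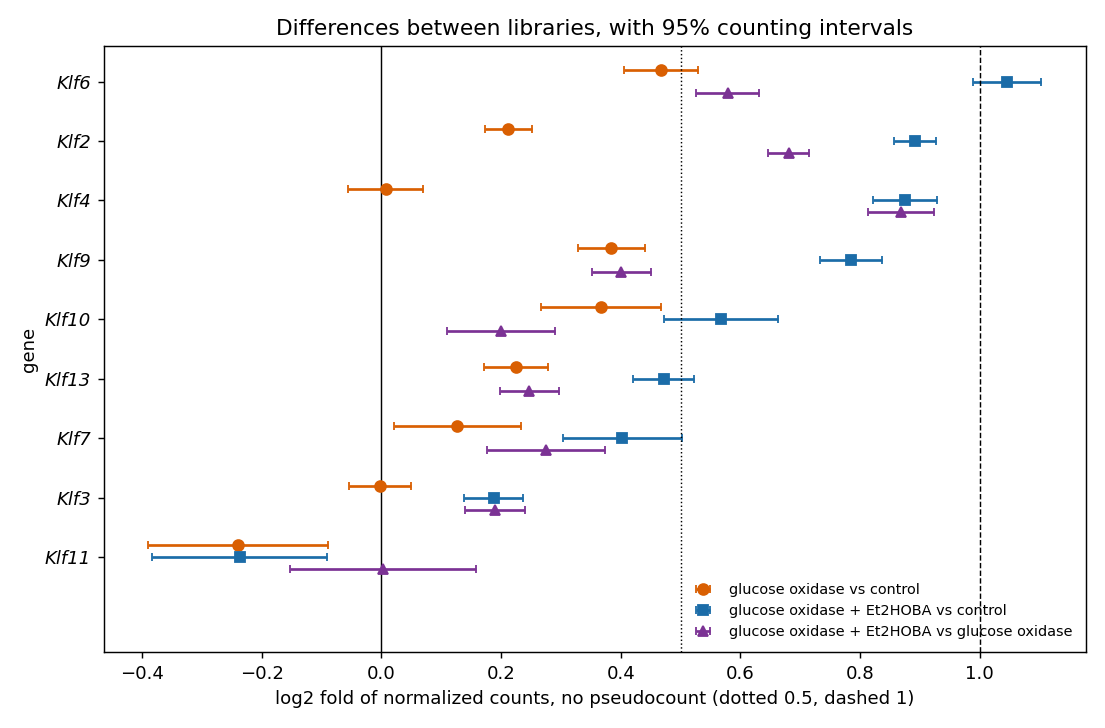
Log2 fold of normalized counts for each listed Kruppel-like factor in the 3 comparisons, with 95% Clopper-Pearson intervals that cover counting error of 1 library per group. Klf4 sits at 0 for glucose oxidase against control and near 0.87 for both comparisons of the Et2HOBA library, whereas Klf11 lies below 0 against control in both and Klf6 is the only one past the dashed line at 1.

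**Figure D3:**
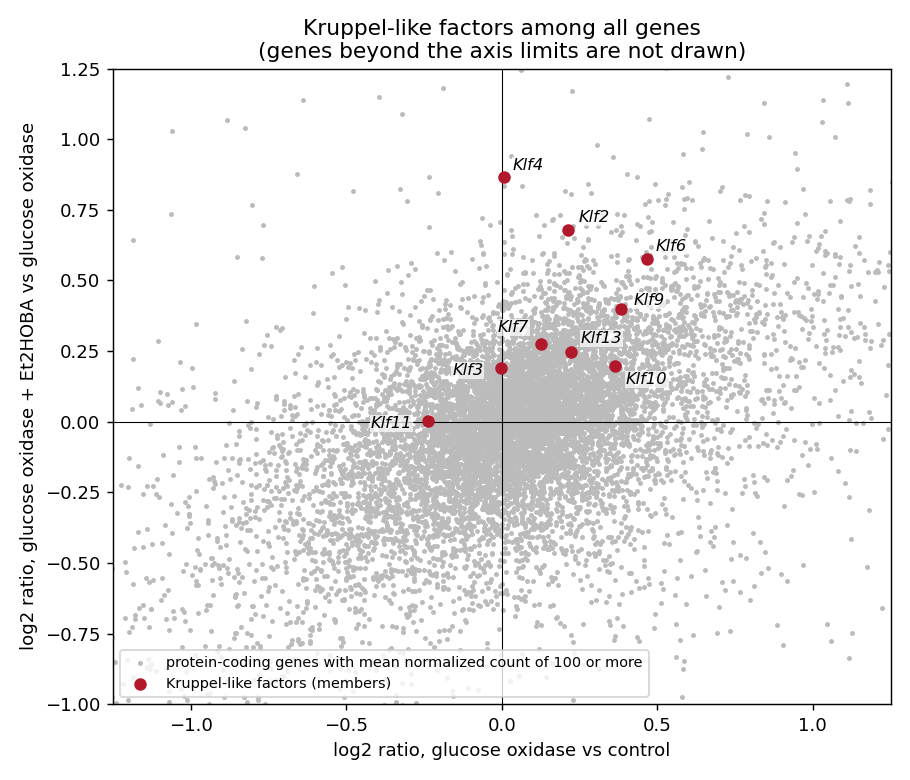
Log2 ratio of glucose oxidase over control (horizontal) and of glucose oxidase plus Et2HOBA over glucose oxidase (vertical) for the 9 members in red and for protein-coding genes with a mean normalized count of at least 100 in grey. Klf4 stands at the upper edge of the cloud above 0 on the horizontal axis, followed by Klf2 and Klf6, and both axes use the glucose oxidase library.

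Few genes had the pattern of Klf4 over the 3 libraries. Likeness was measured as the distance in the plane of the 2 log2 ratios against control, among protein-coding genes with a mean normalized count of at least 100. The nearest to Klf4 were Hipk2 (distance 0.03; 1286, 1209 and 2326 reads), Tnfaip3 (0.06; 698, 684 and 1319 reads) and Dusp8 (0.10; 229, 219 and 462 reads), and 2 genes lay within 0.1. For Klf2 the nearest were Ago2, C3ar1 and Lcor, with 21 genes within 0.1, and for Klf6 they were Golga4, Lcp1 and Arf6, with 40 genes within 0.1. Each pattern rests on 3 libraries.

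In the rest of the Sp/KLF family only Klf5 passed 1 log2 unit. Of 16 other family genes 8 were listed. Klf5 (ENSMUSG00000005148.8, chromosome 14, 99298691 to 99315036), a factor linked to proliferation and to remodelling of the vessel wall, had 52, 460 and 854 reads. That was 9.46-fold above control (7.09 to 12.9) and 16.3-fold (12.3 to 22.0), and 1.73-fold between the treated libraries (1.54 to 1.94). Against control these folds were far larger than those of the 9 members, from a control count well under theirs, whereas between the treated libraries Klf4 had the larger fold (1.83). The other 7 (Klf1, Klf8, Klf16, Sp1, Sp2, Sp3 and Sp4) stayed within 1 log2 unit in each comparison. Klf8, a CtBP-dependent repressor like Klf3, had the lowest log2 ratio to control of these 7 with Et2HOBA, at -0.57, with 224, 169 and 149 reads.

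Upstream of Klf2 and Klf4, transcripts of the MEK5-ERK5-MEF2 route and of the cerebral cavernous malformation complex, which restrains it, stayed within 1 log2 unit. All 15 genes of that list were measured and 0 passed 1 log2 unit in any comparison, where 9.29% of protein-coding genes did after glucose oxidase, 7.33% (higher) and 9.31% (lower) with Et2HOBA against control, and 3.32% between the treated libraries. Their medians were 0.07, 0.07 and 0.08 in the 3 comparisons. The largest ratio was that of Mef2a, with 9439, 10031 and 15873 reads, 1.67-fold above control with Et2HOBA (1.63 to 1.71) and 1.47-fold above glucose oxidase (1.43 to 1.51). Mef2c had 2159, 1255 and 1407 reads and was lower than control in both treated libraries (0.621, interval 0.579 to 0.666, and 0.647, interval 0.605 to 0.693). Mapk7, the gene for ERK5, had 2032, 2272 and 2801 reads. Activity of these kinases was not measured.

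Endothelial genes that KLF2 or KLF4 is known to raise were split. Nos3 and Tek in this list, and Kdr among the genes known to be lowered, are also among the endothelial markers above. Of 12 such genes, 2 were higher and 5 lower than control past 1 log2 unit in the Et2HOBA library, and 0 and 5 after glucose oxidase. Of all protein-coding genes, 7.33% were higher and 9.31% lower in the Et2HOBA library, and 4.53% and 4.77% after glucose oxidase. Nos3, the endothelial nitric oxide synthase, was higher, with 30246, 47041 and 74692 reads, or 2.45-fold above control with Et2HOBA (2.42 to 2.49). Adm, the vasodilator adrenomedullin, which fell outside the naming rule, had 97, 121 and 212 reads. Thbd, the anticoagulant receptor thrombomodulin, had 33844, 24374 and 30529 reads and stayed within 1 log2 unit. On the lower side were Gja4 (connexin 37), with 1562, 287 and 83 reads, Tek, the angiopoietin receptor, with 6786, 2877 and 1688, and Slco2a1, a prostaglandin transporter, with 694, 280 and 199. Ptgds, a prostaglandin D synthase, had 243, 52 and 57 reads. Nppc, which encodes C-type natriuretic peptide, had 29, 2 and 0 reads. On the scale of the deposited tables, which shrinks low counts more, the counts were 1 higher and 5 lower with Et2HOBA (Adm at 0.79) and 0 and 2 after glucose oxidase (Gja4 and Tek). The median ratio of the 12 genes was -0.14 after glucose oxidase and 0.03 with Et2HOBA.

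Genes that KLF2 or KLF4 is known to lower were also found on both sides of control. Of 10 such genes, 2 were higher and 1 lower than control past 1 log2 unit after glucose oxidase, and 4 and 2 in the Et2HOBA library, beside 4.53% and 4.77%, and 7.33% and 9.31%, of protein-coding genes. On the scale of the deposited tables the latter counts were 3 and 1. With total-count scaling or protein-coding size factors they were 4 and 3. Ace, with 22001, 12449 and 11114 reads, lay just inside the limit at -0.99 with Et2HOBA. Il6, the cytokine interleukin 6, had 72, 351 and 1038 reads. F3, the tissue factor that starts coagulation, had 14, 32 and 71 reads, and Sele (E-selectin) had 854, 1782 and 2226. Angpt2, with 9, 17 and 38 reads, rests on few reads. Kdr, the main receptor for vascular endothelial growth factor, was lower, with 61640, 27584 and 24227 reads. Edn1 (endothelin), the other gene on the lower side with Et2HOBA, had 57, 37 and 19 reads. Vcam1 and Ccl2 stayed within 1 log2 unit, at 0.54 and 0.15 with Et2HOBA. The median ratio of the 10 genes was 0.17 after glucose oxidase and 0.59 with Et2HOBA.

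**Figure D4:**
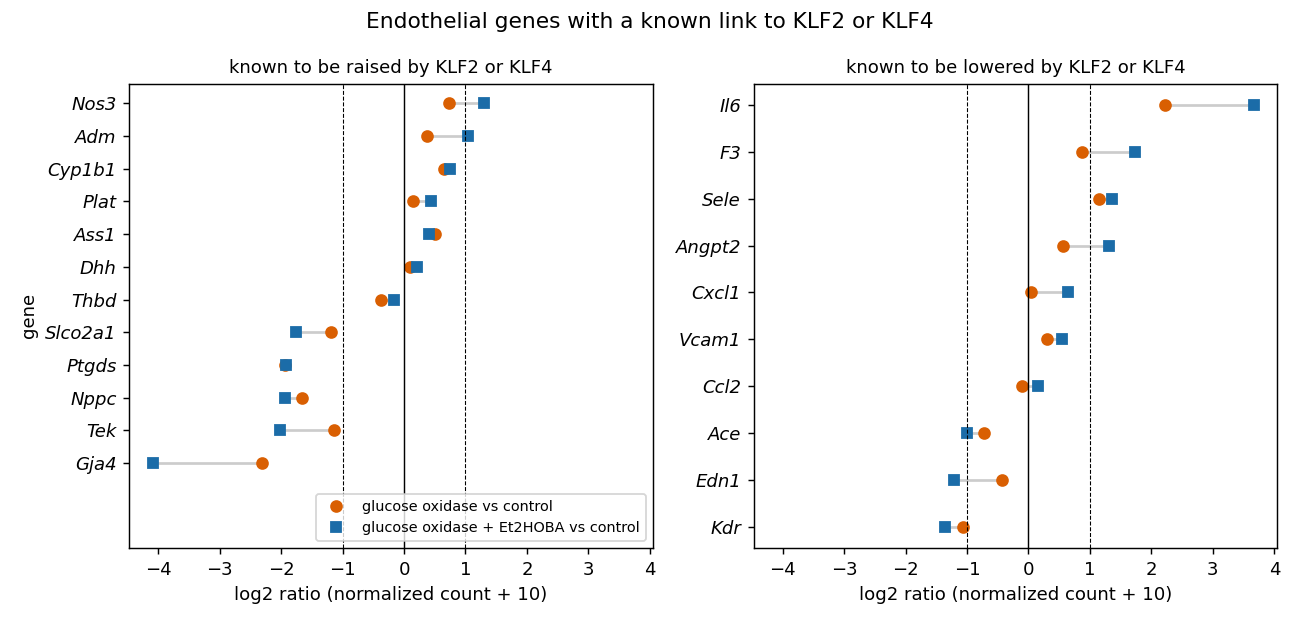
Log2 ratio against control (normalized count plus 10) of 12 endothelial genes known to be raised (left) and 10 known to be lowered (right) by KLF2 or KLF4, after glucose oxidase (circles) and with Et2HOBA added (squares), 1 library per group; dashed lines mark 1 log2 unit. Nos3 and Gja4 lie at opposite ends of the left panel, and Il6 is the highest of the right panel.

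Among 12 cofactors and ubiquitin ligases that act on KLFs, 0 passed 1 log2 unit after glucose oxidase, and 1 was higher and 2 lower with Et2HOBA against control. Of protein-coding genes, 9.29% passed in either direction after glucose oxidase, and 7.33% were higher and 9.31% lower with Et2HOBA. Smurf1, a ubiquitin ligase, had 8255, 14082 and 22395 reads, 2.70-fold above control with Et2HOBA (2.63 to 2.76). Hdac1, a histone deacetylase, had 2107, 1404 and 1003 reads, 0.473 of control (0.438 to 0.510), and Kat2b, a histone acetyltransferase, had 1616, 994 and 774. Ctbp2, a corepressor used by KLF3, had 1943, 2178 and 3220 reads, whereas Ctbp1 had 10799, 10457 and 11372.

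The glucocorticoid route to Klf9 was followed with 7 genes. With Et2HOBA against control 0 were higher and 1 was lower past 1 log2 unit. The lower one was Sgk1, also a target of the receptor, with 18407, 5547 and 3098 reads. Tsc22d3 and Per1, both targets of the receptor, had 5205, 6070 and 7872 reads and 3874, 4169 and 5263 reads, within 1 log2 unit. Both lay above the median of the 7 genes, which was 0.19 with Et2HOBA against control and 0.02 between the treated libraries. The log2 ratios of the rest with Et2HOBA were 0.84 for Dusp1, 0.19 for Fkbp5, 0.07 for Zbtb16 and -0.36 for Nr3c1, the receptor gene. With Et2HOBA 5 of the 7 were above control and 2 below. Of 11 TGF-beta pathway and early response genes, 1 was higher and 1 lower past 1 log2 unit with Et2HOBA: Tgif1 (902, 3258 and 5302 reads) and Tgfbr2 (19060, 10028 and 7089 reads). The shares of protein-coding genes were 7.33% higher and 9.31% lower, and the counts of both lists were near them. Smad7, a feedback inhibitor of the pathway, had 372, 282 and 397 reads.

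Klf2, Klf4, Klf6 and Klf10 are often grouped with the immediate early genes, so that class was read beside them. Of 13 immediate early genes, most of them for transcription factors, 2 were higher and 0 lower past 1 log2 unit after glucose oxidase, and 4 were higher and 2 lower with Et2HOBA. Of protein-coding genes, 4.53% and 4.77%, and 7.33% and 9.31%, were. Between the treated libraries 3 were higher and 2 lower, where 0.971% and 2.35% of protein-coding genes were. On the scale of the deposited tables the counts were 0 higher and 1 lower. Nr4a1, a nuclear receptor induced at once by many stimuli, had 1462, 1301 and 3578 reads, with a fold of 0.951 after glucose oxidase alone (0.882 to 1.03). Atf3 had 107, 667 and 1630 reads and Ier3 had 1709, 3277 and 7361. Egr3, the other gene on the higher side with Et2HOBA, had 18, 29 and 54 reads. Fos had 2619, 2364 and 605 reads and Fosb 1312, 973 and 260, so both were lowest with Et2HOBA. By direction alone, 8 of the 13 genes were above control with Et2HOBA and 5 below.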

How the data were processed

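Polyadenylated RNA was measured in 3 libraries, 1 per group. Reads were handled with STAR and featureCounts on mm10, per the submitters' processing notes; versions and annotation are not given in the sources used here. Per the file headers, the deposited table of glucose oxidase plus Et2HOBA against control holds raw counts of both libraries, log-normalized values on a log2 scale and their difference. The deposited tables for the other comparisons hold a symbol and a log2 difference by the authors, for 18287 and 7 genes.

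No column gives reads of the glucose oxidase library, so they were worked out. The deposited log2 values equal a variance-stabilizing arcsinh form with 1 constant for each library, and solving it from the control counts gave whole numbers (within 0.01) for 100% of 18275 genes matched by symbol, the largest distance being 0.000138. The step was also run on data simulated with that same form, so that run could not check the form itself. Of the listed genes 12 were left out. The deposited scale acts like a pseudocount of 202, 71.1 or 1236 normalized counts in the 3 comparisons, so 1 common scale was used: median-of-ratios size factors over the 3 libraries and a pseudocount of 10. Each gene compared reached at least 5 reads in some library. No p-value or count model was used, since 1 library per group gives no spread, and the call was an absolute log2 ratio of 1. Exon lengths and overlaps came from GENCODE M21; 17878 gene IDs had the same version there, all at the same position, so the coordinates are GRCm38. Promoters came from RefSeq.

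The members, gene lists, scale and limit were chosen with earlier results of these data known. Named genes were every member, other family genes past 1 log2 unit and genes of the lists. At most 6 genes per list past it against control were taken, by the ratio with Et2HOBA. Up to 2 per list that did not pass were added. The 3 genes most like each of the 3 members with the largest ratios were named too. Adm, Klf8, Ace, the genes of the upstream route and the marker and overlapping genes were named after their values were seen. So were Dusp1, Fkbp5, Zbtb16 and Nr3c1. One gene of the lists is not reported here and was left out of their counts and medians. Alternatives were a pseudocount of 1, total-count scaling, TMM factors (edgeR 4.0.16), protein-coding size factors, a minimum mean of 10, a limit of 0.5 and the deposited scale. Python 3.11.15 and scipy 1.17.1 were used.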

Additional observations from a re-analysis of the deposited data

How the results depend on the processing

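The count of KLF members past 1 log2 unit was 0 after glucose oxidase under each of the 7 alternatives, and 0 between the treated libraries under each but the limit of 0.5, which gave 3. With Et2HOBA against control the count of 1 became 0 with total-count scaling and 5 at the limit of 0.5. Total-count scaling put the log2 ratio of Klf6 at 0.89 and shifted the median of all genes by -0.13; the cause is that shift of scale, applied to a value of 1.04 near the limit. Of 135 single values of members under 5 alternatives, 6 changed sign, for Klf3 and Klf4 after glucose oxidase and Klf11 between the treated libraries, each within its counting interval of 0, and 1 crossed the limit (Klf6). In all 22 values moved by more than their counting interval, 18 with total-count scaling and 4 on the deposited scale, and all but that of Klf3 after glucose oxidase lay closer to 0. Under total-count scaling 6 moved by over 1.5 times: Klf3 after glucose oxidase (-0.06), Klf3 and Klf7 with Et2HOBA against control (0.04 and 0.25), and Klf3, Klf10 and Klf13 between the treated libraries (0.10, 0.10 and 0.15). The list counts were recomputed as an alternative chosen after seeing the data. Genes known to be raised had 1 higher and 5 lower with Et2HOBA against control with total-count scaling too, and immediate early genes had 1 higher after glucose oxidase under total-count scaling, protein-coding size factors and the deposited scale. No paired analysis was possible because each group holds 1 library, and for the same reason no library could be left out. Depth was not the limit for most members: the least abundant, Klf11, had 657 reads or more, and the missing replicates limit what any difference shows.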
